A study of Homo sapiens with 6 samples.

Results

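The 10 genes described here encode sensors of unfolded protein and the chaperone and degradation factors that these sensors control: ERN1, ATF6, XBP1, HSPA5, HSP90B1, CALR, CANX, DNAJB9, SEL1L and HERPUD1. They were taken by symbol from a table of 22941 genes, and all 10 were among the 14736 genes with enough counts to be tested. The RNA was from HSC-3, a widely used line of oral squamous carcinoma cells, grown in DMEM with 10% fetal bovine serum. There were 3 libraries of cells under simulated microgravity, produced by rotation in an RCCS (Rotary Cell Culture System), and 3 of cells under normal gravity. No engineered allele or other agent is named for either group, both rest on a single tumour line, and the sources used here do not give the time in rotation or the vessel of the control cells. The libraries are titled as biological replicates with no word on how their cultures were separated, so a p-value reflects the spread among them, which may be partly technical.

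The endoplasmic reticulum folds proteins bound for secretion, the cell surface and lysosomes. When unfolded chains build up there, the kinase and nuclease IRE1 (gene ERN1) splices XBP1 messenger RNA so that it encodes an active transcription factor, and ATF6 moves to the Golgi, where proteases release its own transcription factor part. Both factors are known to raise genes of chaperones and of ER-associated degradation, the route that returns misfolded proteins to the cytosol for the proteasome. In carcinoma cells BiP, the main chaperone of the compartment, is often abundant.

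Promoter elements are shown first because the members divided into genes that rose and genes that did not, and the best known link to ATF6 and XBP1 is a short element near the start. The ER stress response element (ERSE) was searched as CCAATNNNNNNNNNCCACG and its second form, ERSE-II, as ATTGGNCCACG, on both strands, from 250 bases before to 50 bases after the RefSeq start (GRCh38.p14). ERSE letters were present in 5 of the 10 members against 25 of all 27305 genes with a promoter (0.0916%). ERSE-II letters were present in 1 member, HERPUD1, against 19 of all genes (0.0696%). The members were chosen as these sensors and genes they control, so a share above that of all genes was built into the choice. XBP1 has 2 and CANX 4 listed starts. Each match before the first listed start of a gene is given below, 5' to 3', with capitals for the fixed letters and lower case for the spacer.
XBP1, 52 to 34 bases before the start, same strand as the gene: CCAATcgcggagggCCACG
HSPA5, 66 to 48 bases before the start, same strand as the gene: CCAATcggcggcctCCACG
HSP90B1, 194 to 176 bases before the start, same strand as the gene: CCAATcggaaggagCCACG
HSP90B1, 89 to 71 bases before the start, opposite strand to the gene: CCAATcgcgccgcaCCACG
CALR, 225 to 207 bases before the start, opposite strand to the gene: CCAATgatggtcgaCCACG
CANX, 151 to 133 bases before the start, same strand as the gene: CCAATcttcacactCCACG
HERPUD1, 117 to 107 bases before the start, same strand as the gene: ATTGGgCCACG

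The 5 windows below hold the 250 bases before the start and cover part of the contrast among the members. HSPA5, XBP1 and HERPUD1 hold an element and rose, HSP90B1 holds 2 and was not called, and ERN1 rose most with neither form. Not shown are CALR and CANX (ERSE, not called), DNAJB9 and SEL1L (neither form, rose) and ATF6 (neither form, not called). Capitals mark the elements, also where they lie on the opposite strand. Sequences are from RefSeq.
HSPA5 (chr9:125241344-125241593, minus strand): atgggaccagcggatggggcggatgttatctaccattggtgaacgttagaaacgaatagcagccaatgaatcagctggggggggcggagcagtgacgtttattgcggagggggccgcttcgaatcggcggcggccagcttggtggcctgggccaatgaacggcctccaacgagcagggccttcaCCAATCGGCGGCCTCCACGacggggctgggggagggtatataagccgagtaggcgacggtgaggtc
XBP1 (chr22:28800570-28800819, minus strand): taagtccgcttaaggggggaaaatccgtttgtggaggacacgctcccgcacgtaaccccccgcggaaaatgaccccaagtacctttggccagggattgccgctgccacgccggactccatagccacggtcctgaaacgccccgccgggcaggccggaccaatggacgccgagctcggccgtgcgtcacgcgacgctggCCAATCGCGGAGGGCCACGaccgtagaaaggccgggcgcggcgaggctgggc
HERPUD1 (chr16:56931892-56932141, plus strand): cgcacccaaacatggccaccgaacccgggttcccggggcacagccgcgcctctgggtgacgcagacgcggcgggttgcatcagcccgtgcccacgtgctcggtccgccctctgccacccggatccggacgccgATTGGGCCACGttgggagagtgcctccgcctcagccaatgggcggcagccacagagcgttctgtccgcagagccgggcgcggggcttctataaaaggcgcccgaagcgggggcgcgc
HSP90B1 (chr12:103930160-103930409, plus strand): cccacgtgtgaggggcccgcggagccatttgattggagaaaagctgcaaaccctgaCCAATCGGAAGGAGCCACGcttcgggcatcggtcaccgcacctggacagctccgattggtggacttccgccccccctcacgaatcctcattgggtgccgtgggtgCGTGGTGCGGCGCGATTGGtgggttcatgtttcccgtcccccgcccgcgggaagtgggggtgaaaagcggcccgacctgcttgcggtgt
ERN1 (chr17:64130145-64130394, minus strand): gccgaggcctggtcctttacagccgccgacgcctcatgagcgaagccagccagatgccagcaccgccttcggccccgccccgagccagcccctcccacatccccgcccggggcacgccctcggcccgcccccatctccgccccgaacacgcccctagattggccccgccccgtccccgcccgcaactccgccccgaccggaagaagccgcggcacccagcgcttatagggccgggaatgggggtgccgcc

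Neither form was found in the windows of ERN1, ATF6, DNAJB9 and SEL1L. The CCACG letters alone, which form part of both elements, were in 8 of the 10 members and in 42.1% of all genes. The core TGACGTGG, bound by XBP1 and ATF6, was in none of the members and in 0.927% of all genes. A match of letters is a description, and its absence says only that these letters are not in this window.

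**Figure D1:**
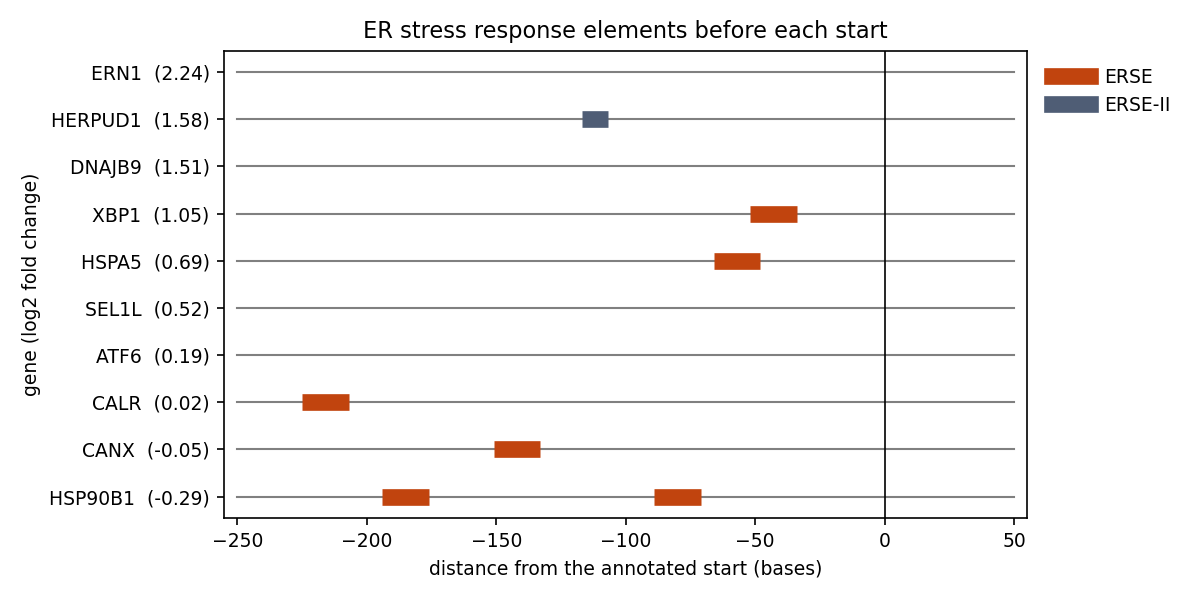
Position of ERSE and ERSE-II matches (coloured blocks) between 250 bases before and 50 bases after the annotated start of each member, ordered by log2 fold change from ERN1 at the top (2.24) to HSP90B1 at the bottom (-0.29). XBP1 and HSPA5, which rose, and CALR, CANX and HSP90B1, which were not called, all hold ERSE letters.

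Total counts per library were between 34264008 and 38861233. On the first principal component (84.7% of the variance) the groups separated, and on the second (7.59%) normal gravity replicate 3 stood apart at -55.9, against 17.6 and 36.3 for replicates 1 and 2. Where leaving it out ended or added a call among the members or moved a count by over 1.5 times, the value without it stands beside the result. All 10 squamous epithelial markers were tested, of which 3 rose (30.0%) and 3 fell (30.0%), near the 28.2% and 29.3% over all genes. KRT5 and KRT14, keratins of basal cells, fell, with log2 fold changes of -3.26 and -3.41, as did TP63 (-1.79). CDH1, the epithelial cadherin, KRT17 and EPCAM rose, with log2 fold changes of 1.26, 1.18 and 0.72. TP63, KRT17 and EPCAM were named after their values were seen, so that all called markers of this list are given. Of 13 markers of fibroblasts, endothelium and blood, 8 were tested, 2 rose and none fell. Their summed level, in counts scaled to a common library size (CPM), was between 97.8 and 128 in simulated microgravity and between 41.3 and 67.5 in normal gravity. CD14 and COL1A1 made up most of it, LUM was at 0 in all normal gravity libraries, and LUM, COL3A1, PTPRC, CD3E and HBB were too low to test. The summed level of the 10 epithelial markers was between 6763 and 8052 CPM in simulated microgravity and between 13610 and 22230 CPM in normal gravity. The part of either list in the results below was not tested.

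Simulated microgravity cells had higher transcripts of the IRE1 sensor, of its substrate XBP1, of the BiP chaperone and of the co-chaperone and degradation genes, while the other abundant chaperones and ATF6 were not called. Of the 10 members 6 rose, none fell and 4 did not pass an adjusted p of 0.05 in edgeR's quasi-likelihood test. Across all genes tested 28.2% rose and 29.3% fell, or 57.6% in either direction. The members' median log2 fold change (simulated microgravity over normal gravity) was 0.61, against -0.01 for all genes. The groups did not overlap in 8 members, 7 of them higher in simulated microgravity, where 33.0% of all genes were higher with no overlap, and 1 lower, as were 33.3% of all genes. Without normal gravity replicate 3, 6 members rose and 1 fell, while over all genes 4833 and 4722 of 15218 rose and fell. In bulk RNA a different number of cells of some kind and a different amount of RNA per cell cannot be told apart.

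**Figure D2:**
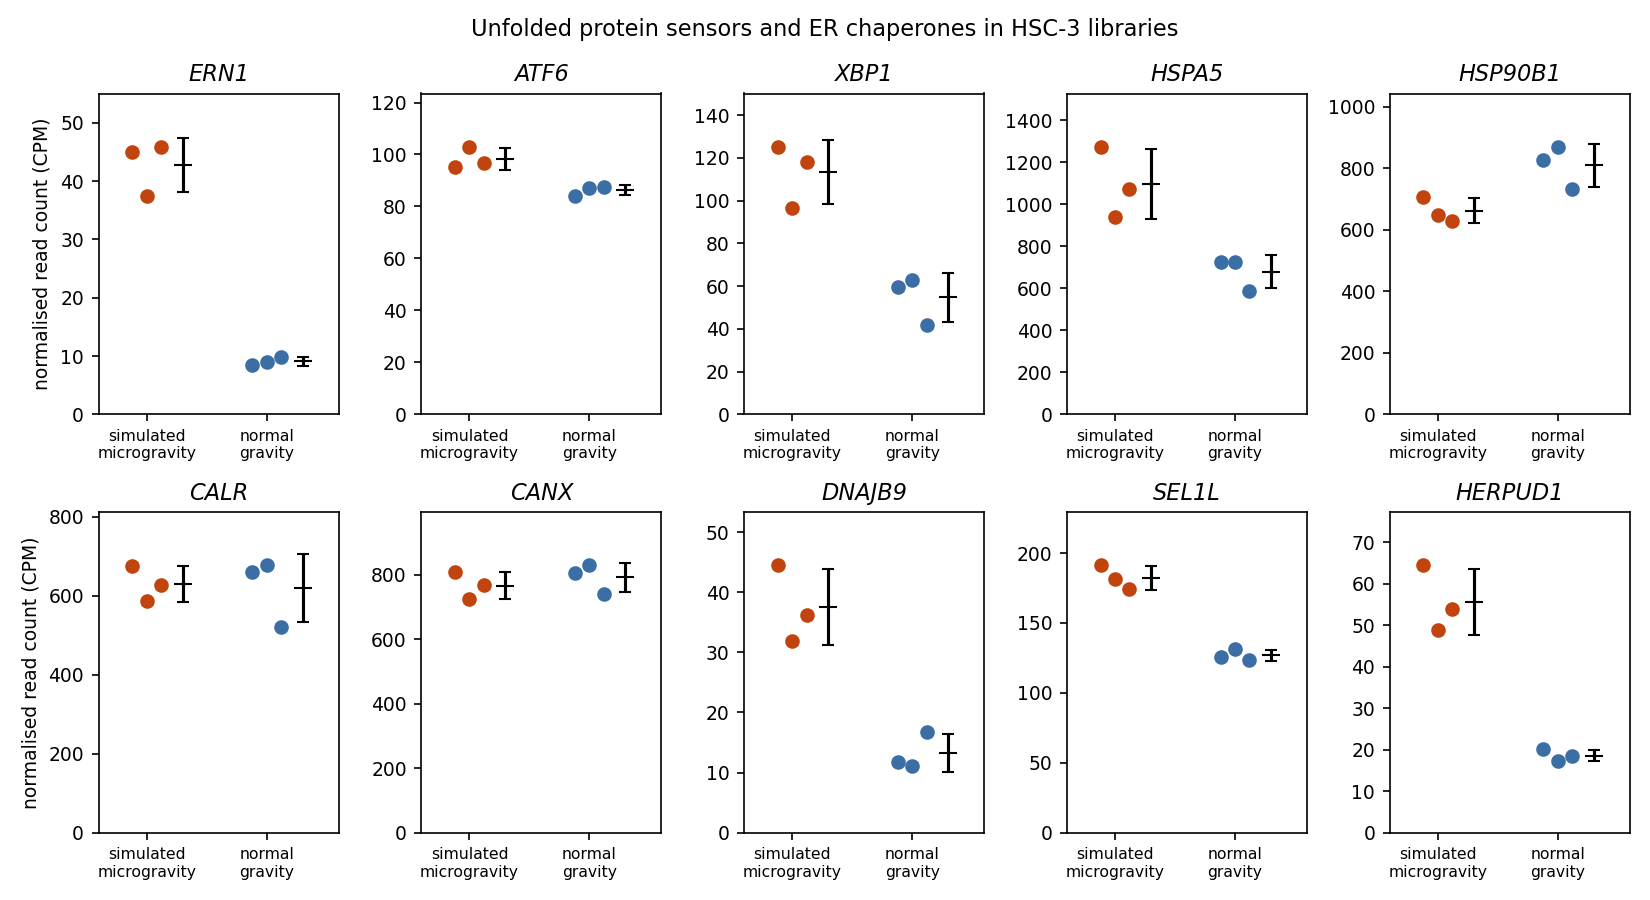
Normalised read counts (CPM, linear axes from 0) of the 10 members in the 3 simulated microgravity libraries (left, orange) and the 3 normal gravity libraries (right, blue), with the mean and SD in black. ERN1, DNAJB9 and HERPUD1 show the widest separation, while CALR and CANX overlap between the groups.

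Of the sensors, ERN1 (Entrez 2081, chromosome 17, 64039142 to 64130144, GRCh38.p14) encodes IRE1, whose luminal part senses unfolded chains. It was at 45.1, 37.5 and 45.9 CPM in simulated microgravity, against 8.37, 9.02 and 9.83 CPM in normal gravity. Every simulated microgravity library was above every normal gravity library. ERN1 rose 4.72-fold (95% interval 3.78 to 5.89, log2 fold change 2.24, SE 0.14, adjusted p = 9.88e-06), and 6.88% of all tested genes had a higher fold change. ATF6 (Entrez 22926, chromosome 1, 161766320 to 161964070), the membrane-bound sensor that is cut in the Golgi, had 95.0, 103 and 96.9 CPM in simulated microgravity, against 84.1, 87.2 and 87.4 CPM in normal gravity. Here too the groups did not overlap, but the gap was narrow and ATF6 was not called (1.14-fold, interval 0.99 to 1.31, adjusted p = 0.101).

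XBP1 (Entrez 7494, chromosome 22, 28794560 to 28800569) is the transcription factor whose messenger RNA IRE1 splices. It was at 125, 96.4 and 118 CPM in simulated microgravity, against 59.7, 62.9 and 41.6 CPM in normal gravity. Normal gravity replicate 3 was the lowest of all 6 libraries. XBP1 rose 2.07-fold (interval 1.57 to 2.72, adjusted p = 0.00107), and its log2 fold change was 1.05, or 0.88 without that replicate. Gene counts do not separate spliced from unspliced XBP1, so its activation was not measured.

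Of the abundant chaperones, HSPA5 (Entrez 3309, chromosome 9, 125234853 to 125241343) encodes BiP, the chaperone that binds unfolded chains and holds the sensors inactive. It was at 1272, 941 and 1071 CPM in simulated microgravity, against 726, 723 and 588 CPM in normal gravity. Its lowest simulated microgravity library stood above its highest normal gravity library. HSPA5 rose 1.61-fold (interval 1.26 to 2.06, log2 fold change 0.69, SE 0.15, adjusted p = 0.00497), with log2 fold changes from 0.57 to 0.79 when single libraries were left out.

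HSP90B1 (Entrez 7184, chromosome 12, 103930410 to 103947926) encodes GRP94, which folds integrins and Toll-like receptors among other clients. It was at 707, 648 and 630 CPM in simulated microgravity, against 827, 869 and 732 CPM in normal gravity, so the groups did not overlap. It was not called (0.818-fold, interval 0.675 to 0.99, adjusted p = 0.068), with an unadjusted p of 0.0412 from the same edgeR fit. Without normal gravity replicate 3 it was called lower, with a log2 fold change of -0.36 and an adjusted p of 0.018.

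CALR and CANX encode calreticulin and calnexin, the soluble and the membrane-bound lectin that hold newly made glycoproteins until they fold. CALR (Entrez 811, chromosome 19, 12938609 to 12944489) was at 676, 587 and 627 CPM in simulated microgravity, against 662, 677 and 521 CPM in normal gravity. CANX (Entrez 821, chromosome 5, 179678656 to 179731641) was at 808, 724 and 768 CPM in simulated microgravity, against 806, 829 and 742 CPM in normal gravity. Both pairs of groups overlapped. The interval of the fold was 0.818 to 1.26 for CALR (adjusted p = 0.896) and 0.808 to 1.16 for CANX (adjusted p = 0.746). The sign of the CALR change was not stable, since its log2 fold change was 0.02 over all libraries but -0.09 when normal gravity replicate 3 was left out and -0.03 when simulated microgravity replicate 1 was. The unnamed gene AC092069.1 on the opposite strand shares 270 bases (14.2%) of the CALR exons in GENCODE 29 and has no row in the count table.

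DNAJB9 (Entrez 4189, chromosome 7, 108569874 to 108574850) encodes ERdj4, a BiP co-chaperone that also delivers misfolded clients for degradation and holds IRE1 back. It was at 44.4, 31.9 and 36.3 CPM in simulated microgravity, against 11.7, 11.1 and 16.8 CPM in normal gravity. The groups were far apart, although normal gravity replicate 3 was above its 2 companions. DNAJB9 rose 2.84-fold (interval 2.07 to 3.9, log2 fold change 1.51, SE 0.20, adjusted p = 3.41e-04). THAP5 on the opposite strand shares 183 bases (6.74%) of the DNAJB9 exons in GENCODE 29 and averaged 16.8 CPM in simulated microgravity and 25.9 CPM in normal gravity. The sources used here do not give the strand setting of the counting, so reads in the shared bases cannot be told apart, nor those in CALR.

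Of the degradation genes, HERPUD1 (Entrez 9709, chromosome 16, 56932142 to 56944864) encodes a short-lived membrane protein that assembles the degradation complex around the HRD1 ligase. It was at 64.4, 48.8 and 53.9 CPM in simulated microgravity, against 20.1, 17.3 and 18.5 CPM in normal gravity. HERPUD1 rose 2.99-fold (interval 2.41 to 3.71, log2 fold change 1.58, SE 0.14, adjusted p = 4.1e-05), with no overlap between groups. SEL1L (Entrez 6400, chromosome 14, 81471547 to 81533853), the partner that stabilises HRD1, was at 191, 181 and 174 CPM in simulated microgravity, against 126, 131 and 123 CPM in normal gravity. SEL1L rose 1.44-fold (interval 1.24 to 1.66, adjusted p = 0.00154), the smallest rise among the 6 members called and the one with the smallest SE (0.09 on the log2 scale).

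**Figure D3:**
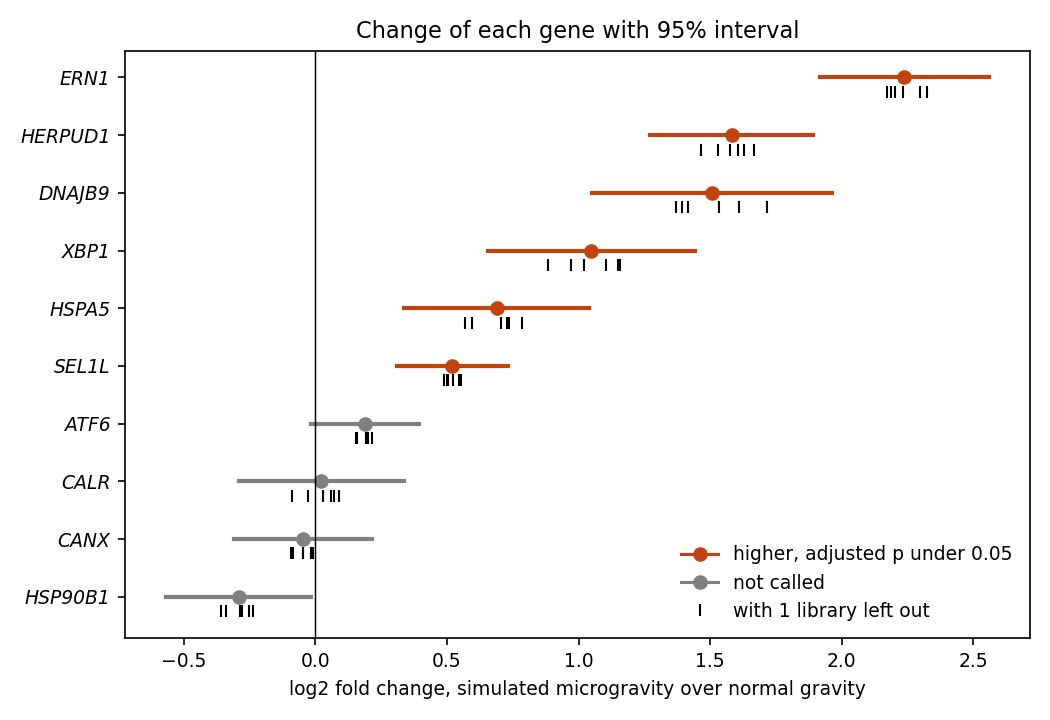
Log2 fold change (simulated microgravity over normal gravity) of each member with its 95% interval, ordered by size, and black ticks for the 6 fits that each leave out 1 library. All ticks of ERN1, HERPUD1, DNAJB9, XBP1, HSPA5 and SEL1L lie above 0, and those of CALR lie on both sides of 0.

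Levels of different members were compared per kilobase of merged coding-transcript exons (GENCODE 29). On this scale HSPA5 was at 280 ± 42.7 CPM per kb in simulated microgravity and 174 ± 20.1 CPM per kb in normal gravity (SD, n = 3 each). CALR was at 331 ± 23.4 CPM per kb in simulated microgravity and 326 ± 45.1 CPM per kb in normal gravity. HSP90B1 was at 231 ± 14.2 and CANX at 172 ± 9.42 CPM per kb in simulated microgravity, against 282 ± 24.5 for HSP90B1 and 178 ± 10.2 for CANX in normal gravity. By mean, the order in simulated microgravity was thus CALR, HSPA5, HSP90B1 and CANX, while in normal gravity it was CALR, HSP90B1, CANX and HSPA5, with CANX and HSPA5 within 1 SD of each other. The sensors lay far below, with ERN1 at 4.37 ± 0.475 CPM per kb in simulated microgravity and 0.926 ± 0.0745 CPM per kb in normal gravity, the lowest level of the 10 members in both groups. ATF6 was at 13.1 ± 0.55 CPM per kb in simulated microgravity and 11.5 ± 0.246 CPM per kb in normal gravity.

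HSPA5 took a larger share of the 4 abundant chaperones' counts in every simulated microgravity library. HSPA5 made up 36.7%, 32.4% and 34.6% of their summed counts in simulated microgravity, against 24.0%, 23.3% and 22.8% in normal gravity. HSP90B1 made up 20.4%, 22.3% and 20.3% in simulated microgravity, against 27.4%, 28.1% and 28.3% in normal gravity. CANX made up 24.4% ± 0.903 in simulated microgravity and 27.4% ± 1.15 in normal gravity (SD, n = 3 each). The shares of HSPA5, HSP90B1 and CANX did not overlap between groups, and each reached an exact two-sided permutation p of 0.1, the smallest that 3 libraries against 3 allow. These are not separate results, since the shares of a library add up to the whole and a larger share of HSPA5 lowers the others. The level of CANX itself overlapped between groups (0.968-fold, adjusted p = 0.746, edgeR). The share of CALR was 20.0% ± 0.419 in simulated microgravity and 21.3% ± 0.982 in normal gravity (SD, n = 3 each), with overlap (exact permutation p = 0.3). The summed level of the 4 genes was 3153 ± 286 CPM in simulated microgravity and 2900 ± 277 CPM in normal gravity (SD, n = 3 each; exact permutation p = 0.5).

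**Figure D4:**
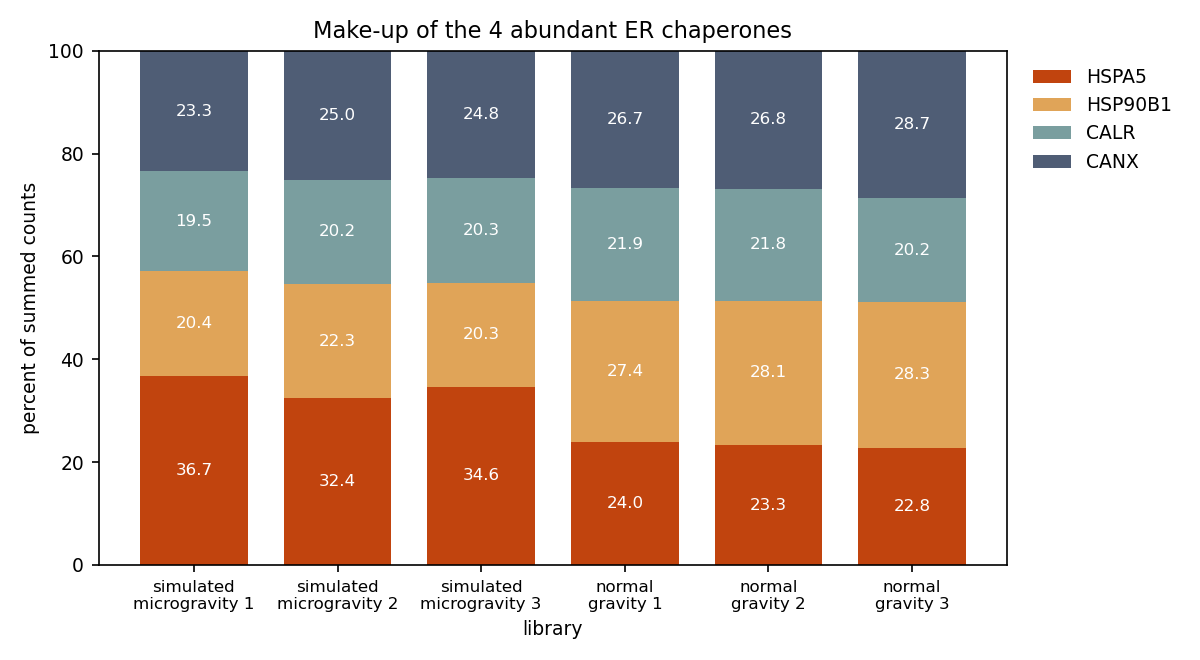
Percent of the summed counts of HSPA5, HSP90B1, CALR and CANX that each gene takes in each library, simulated microgravity at the left. HSPA5 takes 32.4% to 36.7% in simulated microgravity and 22.8% to 24.0% in normal gravity.

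Ratios between members within a library do not depend on scaling between libraries. The count ratio of HSPA5 to HSP90B1 was 1.80, 1.45 and 1.70 in simulated microgravity, against 0.878, 0.831 and 0.804 in normal gravity. Every ratio in simulated microgravity was above every ratio in normal gravity. The ratio of HSPA5 to HERPUD1 was 19.8, 19.3 and 19.9 in simulated microgravity, a nearly constant value, against 36.2, 41.8 and 31.9 in normal gravity. The ratio of HSPA5 to DNAJB9 was 28.6, 29.5 and 29.5 in simulated microgravity, against 61.9, 65.1 and 35.0 in normal gravity. Of all 45 pairs of members, 39 had ratios that did not overlap between groups, as did 64.5% of all pairs among the 14293 tested genes with counts in every library. Each of these had an exact permutation p of 0.1, the smallest possible, and 0.115 after Benjamini-Hochberg adjustment over the 45 pairs. The log2 ratio of DNAJB9 to HERPUD1 differed by -0.06 between groups (exact permutation p = 1.0), and these ratios overlapped.

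Log2 CPM over the 6 libraries was compared with that of HSPA5 in 10481 genes of at least 5 CPM. Genes with numbered LOC and LINC names were left out. Those that followed HSPA5 most closely were FLII, PAFAH1B1, SUN3, SBDS and ZSCAN9, with Pearson correlations from 0.9935 to 0.9973. Of these, ZSCAN9 was not called (adjusted p = 0.0661, edgeR). FLII, an actin-remodelling protein, was at 625, 444 and 532 CPM in simulated microgravity, against 330, 340 and 250 CPM in normal gravity. Among the members XBP1 had the highest correlation with HSPA5 (0.983, with 46 genes above it), and HSP90B1 the lowest (-0.584). These correlations are descriptions, and their points share the 2 groups, so that the difference between groups enters each of them.

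The PERK arm, the third branch of the response, slows protein synthesis and induces ATF4 and CHOP. Of the 14 tested genes listed for this arm 13 rose (92.9%) and none fell, against 28.2% and 29.3% over all genes. Their median log2 fold change was 1.35. PERK activity was not measured, and what raised these transcripts was not tested. EIF2S1, the subunit that PERK phosphorylates, was the gene not called. Without normal gravity replicate 3 it was called lower, with a log2 fold change of -0.37 (adjusted p = 0.0035). Without simulated microgravity replicate 1, NUPR1, a stress-induced cofactor, passed the filter and was called lower (log2 fold change -4.72, adjusted p = 0.0495). Its counts were 6, 2 and 1 in simulated microgravity and 10, 10 and 115 in normal gravity, so that its value rests mostly on normal gravity replicate 3. EIF2S1 and NUPR1 were named after their values were seen. TRIB3, a pseudokinase induced by ATF4, averaged 104 ± 9.38 CPM in simulated microgravity and 27.2 ± 4.66 CPM in normal gravity (SD, n = 3 each). CHAC1, a glutathione-degrading enzyme induced downstream of ATF4, averaged 93.9 ± 45.9 CPM in simulated microgravity and 1.39 ± 0.499 CPM in normal gravity. PPP1R15A, the GADD34 subunit that restores protein synthesis, averaged 332 ± 99.8 CPM in simulated microgravity and 46.9 ± 3.22 CPM in normal gravity. Among sensors and partners outside the members, 4 of 20 rose and 5 fell, both shares below the 28.2% and 29.3% over all genes. EIF2AK3 was counted both in this list and in that of the PERK arm. EIF2AK3, which encodes PERK itself, rose by 0.61 on the log2 scale (SE 0.12). ATF6B, the relative of ATF6, rose by 0.49 (SE 0.09), and MBTPS2, the protease that completes the cut of ATF6, changed by -0.79 (SE 0.15).

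In ER-associated degradation, 14 of the 33 tested genes that are no members rose (42.4%) and 1 fell (3.03%), against 28.2% and 29.3% over all genes. The median log2 fold change was 0.19. UBE2J1, the ubiquitin-conjugating enzyme of the HRD1 complex, averaged 67.1 ± 2.81 CPM in simulated microgravity and 32.8 ± 4.47 CPM in normal gravity. EDEM1, a lectin that extracts misfolded glycoproteins from the folding cycle, averaged 56.1 ± 2.75 CPM in simulated microgravity and 30.8 ± 0.242 CPM in normal gravity. FAF1, a cofactor of the p97 segregase, averaged 39.1 ± 1.90 CPM in simulated microgravity and 78.1 ± 3.79 CPM in normal gravity and was the gene that fell. The count of 14 fell to 8 without simulated microgravity replicate 1 and to 9 without replicate 3, and was 18 without normal gravity replicate 3. Over all genes, 3435 of 15139, 3543 of 15152 and 4833 of 15218 rose in these fits, in the same order. In that last fit 2 genes fell, FAF1 and UBE2G2, a ubiquitin-conjugating enzyme of the pathway (log2 fold change -0.31, adjusted p = 0.0191), the second named after its value was seen.

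Among disulfide isomerases and oxidases, 13 of 24 tested genes fell (54.2%) and 3 rose (12.5%), against 29.3% and 28.2% over all genes. The median log2 fold change was -0.41. PRDX4, the ER peroxiredoxin, averaged 20.3 ± 1.64 CPM in simulated microgravity and 75.6 ± 1.69 CPM in normal gravity, and GPX8, an ER peroxidase, was at 11.2 ± 1.86 CPM in simulated microgravity and 45.4 ± 2.12 CPM in normal gravity. QSOX1, a secreted sulfhydryl oxidase, averaged 311 ± 33.1 CPM in simulated microgravity and 126 ± 3.79 CPM in normal gravity. The count of 3 was 1 when any of simulated microgravity replicates 1 and 3 and normal gravity replicate 1 was left out. Of the 20 genes of N-glycan transfer and of the calnexin cycle, 15 fell and 1 rose, around a median of -0.52 on the log2 scale. TUSC3, an oligosaccharyltransferase subunit, had a log2 fold change of -1.61 (SE 0.13). GANAB, the glucosidase that prepares glycoproteins for calnexin and calreticulin, averaged 182 ± 8.43 CPM in simulated microgravity and 358 ± 19.1 CPM in normal gravity. MCFD2, part of an export receptor, was the gene that rose, with a log2 fold change of 0.51 (SE 0.10).

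Of the 27 other luminal chaperones and co-chaperones tested, 6 rose (22.2%) and 8 fell (29.6%), near the 28.2% and 29.3% over all genes, and the median log2 fold change was -0.12. FKBP10, a prolyl isomerase of collagen folding, averaged 4.32 ± 1.04 CPM in simulated microgravity and 38.1 ± 3.24 CPM in normal gravity. The log2 fold change was -0.90 (SE 0.12) for FKBP14, another prolyl isomerase of the lumen, and 0.62 (SE 0.11) for PPIC, a cyclophilin. The count of 6 was 3 without simulated microgravity replicate 1 and 2 without replicate 3. HYOU1, the nucleotide exchange factor of BiP, was not called (log2 fold change 0.08, SE 0.17, adjusted p = 0.713). HYOU1 was chosen after its values were seen, because it works directly on BiP.

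**Figure D5:**
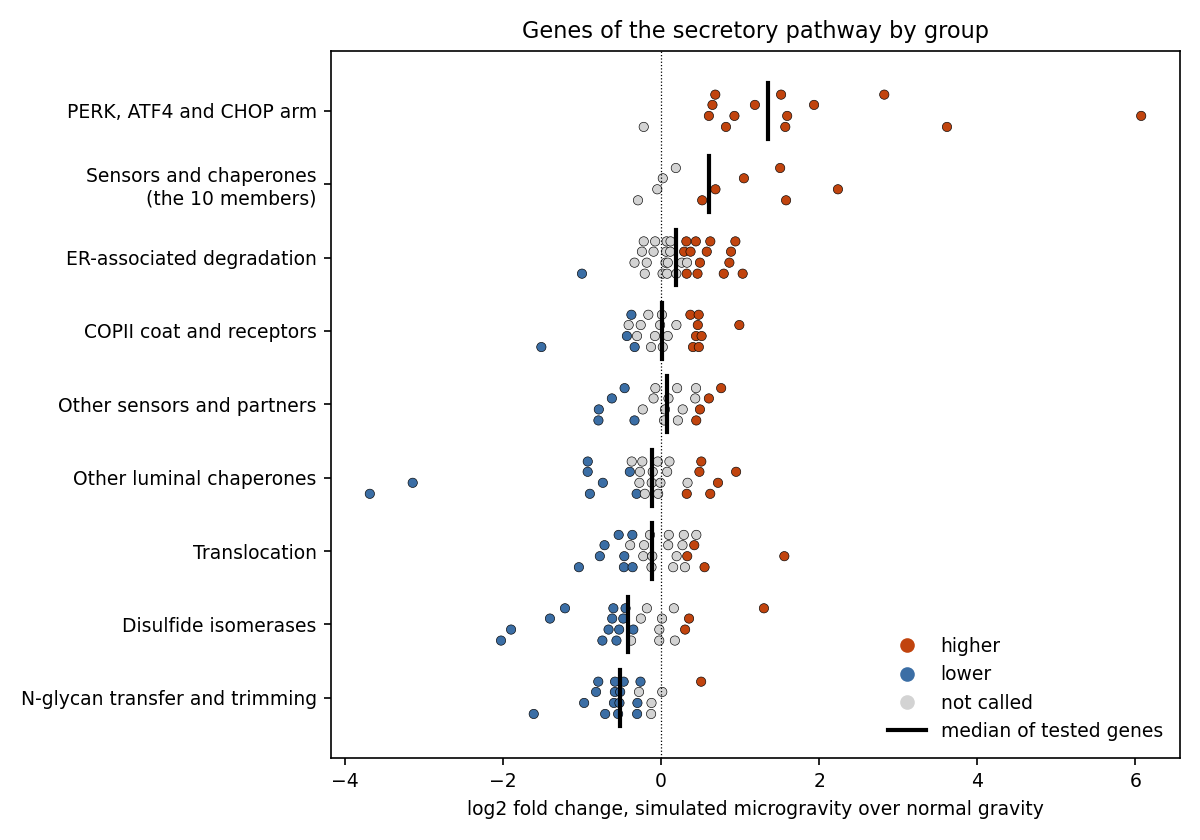
Log2 fold change (simulated microgravity over normal gravity) of each tested gene in the 10 members and in 8 other groups of the secretory pathway, coloured by call, with the median of each group as a black bar. The medians run from 1.35 in the PERK arm to -0.52 in N-glycan transfer and trimming.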

How the data were processed

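The authors deposited a single table of whole-number read counts per gene for 6 RNA-seq libraries of HSC-3 cells, not normalized. Per the labels' protocols, TRIzol RNA, a VAHTS Universal library kit and 150 bp paired-end Illumina reads were used. The tools named are HTSeq, HISAT, fastp, DESeq2 and R 3.2.0, and the build is hg38, per the submitters' processing notes. Their roles, the annotation release and the strand setting are not stated in the sources used here. Columns carry a group name and a number. SMG is named in the treatment protocol, and NC was taken as normal gravity, the only other group.

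Genes were filtered with filterByExpr (minimum count 10), scaled by TMM and tested with edgeR 4.0.16 (quasi-likelihood F-test, robust, R 4.3.3), simulated microgravity against normal gravity, with Benjamini-Hochberg adjustment over all 14736 genes and a threshold of 0.05. CPM uses TMM-scaled library sizes. Standard errors were obtained as |log2 fold change| over √F, and 95% intervals from them. Lists were described by counts and medians. Genes named by rule are the members and the 3 genes of smallest adjusted p per list, with both directions where called genes went both ways. The rule adds the 2 per direction of the KEGG list outside other lists. It also adds the 5 genes most correlated with HSPA5, numbered LOC and LINC names left out. Others, such as the remaining called epithelial markers, were named after their values were seen. The members and lists were chosen with earlier results of these data known. ERN2, GPX7 and DERL3 were listed but not matched and are not analysed here. Alternatives were other scalings and filters, the DESeq2 1.42.0 Wald test, limma-voom (limma 3.58.1), a replicate block and leaving out each library. On simulated counts of 14507 genes, the fit called 47 of 100 genes with a 2-fold change in the right direction. At a 4-fold change it called 83 of 97, and there were 10 false calls. Far fewer genes changed there than were called in the data, and a gene not called may still have changed. No pair of libraries in a group agreed within sampling noise (chi-square over degrees of freedom 18.5 to 149).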

Additional observations from a re-analysis of the deposited data

How the results depend on the processing

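The 6 rises and the absence of a call for ATF6, CALR and CANX held with the DESeq2 Wald test, limma-voom, DESeq2 size factors, scaling by library size alone, a filter of CPM above 1 in 3 libraries, no filter and the replicate block, as well as in each fit that left out 1 library. Deviations from the group means of same-numbered libraries correlated at 0.0494, -0.0437 and -0.0169, against -0.0692 to 0.0772 for libraries of unlike number. With 3 libraries a group this cannot settle whether a shared number marks a shared culture or day. The replicate block gave 6 members higher, 0 lower, and 3875 and 3985 of all genes. Leaving out single libraries gave 0 to 1 members lower, a log2 fold change of HSP90B1 from -0.358 (called, without normal gravity replicate 3) to -0.238, and of CALR from -0.088 to 0.09, with -0.028 without simulated microgravity replicate 1. Called counts then ranged from 2 to 6 (luminal chaperones higher), 1 to 3 (disulfide higher), 8 to 18 (degradation higher), 1 to 2 (degradation lower), 2 to 5 (translocation higher), 2 to 6 (COPII lower) and 0 to 1 (PERK arm lower). In the PERK arm 1 gene fell without the filter, NUPR1, which has too few counts to pass it with all 6 libraries but was tested in each fit that left out a simulated microgravity library. Of the markers of other cells 1 rose under the CPM filter, with 3 tested. With only the 250 bases before the start, CCACG was in 37.5% and TGACGTGG in 0.78% of genes, since a shorter window holds fewer matches. No scaling or filter moved the median of all genes by more than 0.086. The lowest count of a member in a library was 320 (ERN1, normal gravity replicate 1), and 3 libraries a group limit every permutation test to p = 0.1.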

Other observations

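Of the 25 genes with ERSE in their window, 17 could be tested. Of those, 5 rose (29.4%), 4 fell (23.5%) and 8 were not called, near the 28.2% and 29.3% over all genes, the median log2 fold change being 0.16, and 5 of the 25 are the members described above. FICD, the enzyme that attaches AMP to BiP and removes it, rose by 2.26 on the log2 scale (SE 0.33, adjusted p = 5.53e-04, edgeR). PDIA6, a disulfide isomerase that restrains IRE1, fell by 0.74 on the log2 scale (SE 0.11). CRELD2, a secreted ER stress marker, was not called (-0.12 on the log2 scale, SE 0.14, adjusted p = 0.501, edgeR). These 3 genes and this count over ERSE genes were chosen after their values were seen. Of the 19 genes with ERSE-II letters, 14 were tested, 5 rose (35.7%) and 4 fell (28.6%). SDF2L1, a BiP cofactor, had a log2 fold change of 0.72 (SE 0.23).

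Of 26 translocation genes, which serve entry into the ER, 4 rose (15.4%) and 8 fell (30.8%), against 28.2% and 29.3% over all genes. TRAM2, which assists collagen entry, averaged 145 ± 8.64 CPM in simulated microgravity and 297 ± 23.1 CPM in normal gravity, while the log2 fold change was 1.56 (SE 0.19) for GET4, of tail-anchored protein insertion, and -0.54 (SE 0.10) for SSR1, of the translocon-associated complex. Of 23 COPII coat and receptor genes, which serve its exit, 8 rose (34.8%) and 4 fell (17.4%). SEC24A, a cargo-binding coat subunit, averaged 51.2 ± 6.62 CPM in simulated microgravity and 25.7 ± 1.84 CPM in normal gravity, SEC24C rose by 0.48 on the log2 scale (SE 0.10), and KDELR3, a retrieval receptor, changed by -1.51 (SE 0.32). Without simulated microgravity replicate 1, translocation genes had 2 higher and COPII genes 2 lower.

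In the deposited KEGG annotation of protein processing in the endoplasmic reticulum, 155 genes were tested, among them 9 of the 10 members. Of these 155, 52 rose (33.5%) and 31 fell (20.0%), against 28.2% and 29.3% over all genes, at a median log2 fold change of 0.10. With the 9 members left out, 47 of 146 rose (32.2%) and 31 fell (21.2%), at a median of 0.09. YOD1, a deubiquitinase of the p97 pathway, averaged 138 ± 26.6 CPM in simulated microgravity and 35.5 ± 2.33 CPM in normal gravity, and UBE2D1, a ubiquitin-conjugating enzyme, rose by 1.43 on the log2 scale (SE 0.12). HSPA4L, a cytosolic chaperone, averaged 5.63 ± 1.71 CPM in simulated microgravity and 32.2 ± 7.40 CPM in normal gravity, and EIF2AK4, the amino acid sensor GCN2, changed by -0.96 on the log2 scale (SE 0.11).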
